A study of Mus musculus with 12 samples.

Results

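The gene group described here comprised Dio1 and 4 further genes that handle thyroid hormone, Serpina7, Ttr, Thra and Thrb. It was selected by gene symbol on a mouse expression array, and all 10 probe sets assigned to these 5 symbols alone were taken, of 45101 probe sets in all. Each of the 5 genes passed the filter on dim probe sets, as did 13598 genes in total. The genes were chosen from the values of these same arrays, so their levels and differences are given as a description and without p-values.

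Expression was measured in liver RNA of male mice aged 6 to 12 weeks, in 4 groups of 3 mice, with livers taken at Zeitgeber time 14, counted in hours from lights on in a cycle of 12 h of light and 12 h of darkness. Clk/Clk mice, Clock mutants on the Jcl:ICR background, ate a diet with 0.5% by weight of bezafibrate for 5 days, as did PPARα-null mice and wild-type Jcl:ICR mice. A second wild-type group received the same diet without the drug and is called untreated here. Bezafibrate is a fibrate, a lipid-lowering agent that activates the nuclear receptor PPARα, and CLOCK is a transcription factor of the circadian clock. The PPARα-null mice came from a cross of 129S4SvJae-PPARalphatm1Gonz/J with Jcl:ICR mice, so the null allele and the strain background cannot be told apart. No untreated mutant mice were part of the design. Each sample is 1 mouse. The p-values weigh a difference between group means against the spread between mice of the same group, pooled over the 4 groups. Values are log2 expression values, normalised together over the 12 arrays, and the number of arrays limits the precision.

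Arrays of the same group correlated at 0.993 to 0.996 over all probe sets, and arrays of different groups at 0.969 to 0.990. Ppara, the targeted gene of the null mice, still gave signal there, with log2 values of 8.89 to 10.04 over its 3 probe sets. On each of them the null mice lay under all other mice, but the labels do not say where these probes lie relative to the deletion, so this does not check the genotype. Of 7 hepatocyte marker genes tested, 4 were called higher in PPARα-null than in wild-type mice on bezafibrate, where 5.35% of all genes were. In bezafibrate-fed against untreated wild-type mice 5 of these markers were called lower, where 7.77% of all genes were. Their summed level had log2 values of 16.55 to 16.60 in Clk/Clk, 16.61 to 16.73 in PPARα-null, 16.31 to 16.41 in bezafibrate-fed wild-type and 16.82 to 16.90 in untreated wild-type livers. Of the 8 thyroid gland markers, 3 passed the filter and none was called in any of the 3 main comparisons, while Tg, which encodes thyroglobulin, and Pax8 lay under the filter level on every array. In bulk tissue, fewer cells of a type and less RNA per cell cannot be told apart.

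As background, the thyroid gland releases mainly thyroxine, a prohormone, and tissues remove an iodine atom from it to obtain triiodothyronine, the hormone that binds the nuclear receptors. DIO1, type 1 deiodinase, is a selenoprotein of liver and kidney membranes that carries out this activation and also clears inactive iodothyronines. Thyroxine-binding globulin and transthyretin are liver proteins that carry the hormones in blood. In liver, the hormone acts mainly through the receptor THRB, and Dio1 itself is a well-known gene raised by triiodothyronine. C3H mice are known for an inherited low Dio1 level in liver.

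The 250 bases before the start of Dio1 on chr4:107307169-107307418 (minus strand) and before the first start of Serpina7 on chrX:139085237-139085486 (minus strand) are shown because these are the members whose levels differed most between groups. The sequences are RefSeq's on GRCm38.p6, and capitals would mark a motif match, of which neither window has any.
Dio1: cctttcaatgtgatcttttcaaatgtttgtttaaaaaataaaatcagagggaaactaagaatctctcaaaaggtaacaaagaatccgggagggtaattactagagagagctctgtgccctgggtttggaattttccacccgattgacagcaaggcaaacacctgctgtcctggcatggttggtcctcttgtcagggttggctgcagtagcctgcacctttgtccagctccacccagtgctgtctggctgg
Serpina7: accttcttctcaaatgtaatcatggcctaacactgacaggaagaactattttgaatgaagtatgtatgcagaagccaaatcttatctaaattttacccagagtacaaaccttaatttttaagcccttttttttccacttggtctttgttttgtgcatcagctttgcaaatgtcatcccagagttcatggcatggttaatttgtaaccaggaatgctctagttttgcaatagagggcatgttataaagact
The motifs searched on both strands were CACGTG, the E-box bound by CLOCK:BMAL1, AGGTCA, the hexamer of nuclear receptors, and direct repeats of 2 such hexamers with any 1 or any 4 bases between, spacings known for PPARα and thyroid hormone receptor dimers, so that each repeat also counts as a hexamer match. Among 32851 windows of 250 bases before gene starts, CACGTG was found in 6.02%, AGGTCA in 14%, the repeat with 1 base between in 0.0335% and the repeat with 4 bases between in 0.0152%. The search took 5 windows of 3 members, and none of Thra or Ttr. Both windows of Serpina7 and the 1 of Dio1 held no match. Of the Thrb windows 1 held AGGTCA and the other CACGTG. No match says only that these letters are not in the window.

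Dio1, measured by 1 probe set, was the member with the widest range of levels. In Clk/Clk livers its log2 values were 3.97, 4.69 and 3.85 for mice 1 to 3. In PPARα-null livers they were 6.33, 10.59 and 10.39, and in bezafibrate-fed wild-type livers 9.0, 7.61 and 8.58. In untreated wild-type livers they were 10.27, 11.16 and 6.75. The 3 Clk/Clk mice lay under all other mice and under the filter level of 4.87 to 4.92 on their arrays, whereas the other 3 groups overlapped one another. The group means, with SD over 3 mice, were 4.17 ± 0.45 in Clk/Clk, 9.10 ± 2.40 in PPARα-null, 8.40 ± 0.71 in bezafibrate-fed wild-type and 9.39 ± 2.33 in untreated wild-type mice. From low to high, the order was Clk/Clk, bezafibrate-fed wild type, PPARα-null and untreated wild type, and of these neighbours only the lowest pair did not overlap.

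**Figure D1:**
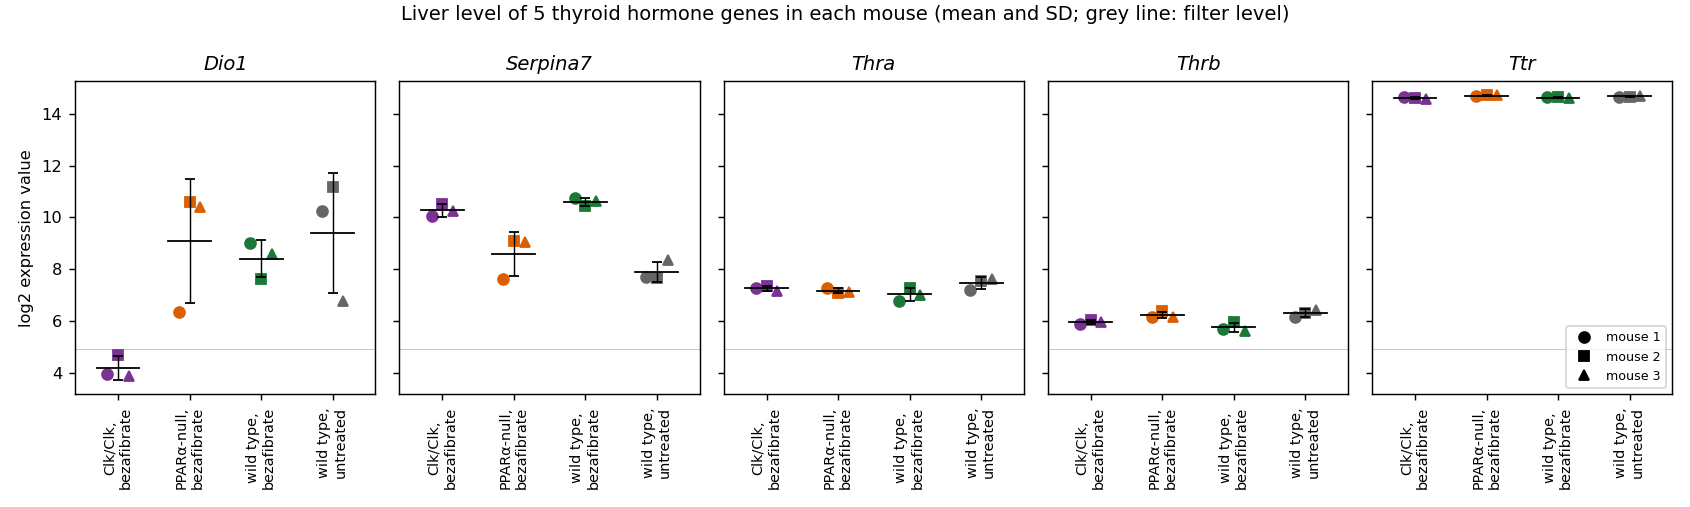
Log2 expression value (y axis) of the brightest probe set of Dio1, Serpina7, Thra, Thrb and Ttr in each mouse, by group (x axis); symbols mark mice 1 to 3 and do not pair them across groups, bars are the group mean and SD, and the grey line is the filter level. Dio1 lies between 3.85 and 4.69 in the 3 Clk/Clk mice, and its values span 6.33 to 10.59 in the PPARα-null mice.

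Between Clk/Clk and wild-type mice, both on bezafibrate, the Dio1 difference was -4.23 ± 1.18 (log2, SE, 8 residual degrees of freedom). It was the only 1 of the 5 members called in that comparison, that is, with a limma adjusted p under 0.05 over all genes and at least 1.5-fold, where 9.13% of all genes were called and 6.49% were called lower. On the brightest probe set of each gene, it was also the only member whose groups did not overlap there, where 21.1% of all genes had lower and 21.2% higher values without overlap. Among the dimmer probe sets, 2 of Thra and 2 of Ttr did not overlap either. Because Dio1 was not above the filter level on any Clk/Clk array, its size is only a bound. On group means, the level was at least 11.4-fold lower in Clk/Clk than in bezafibrate-fed wild-type mice, against a measured 18.7-fold. The bound takes, for each Clk/Clk array, the filter level in place of the dimmer probe value. Against the mean of PPARα-null mice the same bound was 18.6-fold lower in Clk/Clk, and against that of untreated wild-type mice 22.7-fold lower. These bounds replace only the dim Clk/Clk values and take the other group's mean as measured. They are therefore not limits over the spread between mice. PPARα-null mouse 1, at 6.33, and untreated mouse 3, at 6.75, lay nearer to the filter level than the other mice of their groups. The hepatocyte marker sum was 16.55 to 16.60 in Clk/Clk against 16.31 to 16.41 in bezafibrate-fed wild-type livers. There 1 of 7 hepatocyte markers was called higher, against 2.64% of all genes. Of 7 Kupffer cell and macrophage markers, 2 were called lower in Clk/Clk, with summed log2 levels of 11.15 to 11.36 against 11.50 to 11.92 in wild type, and the part of either list was not tested. Leaving out Clk/Clk mouse 1 gave -4.13 and leaving out mouse 3 gave -4.07, and leaving out bezafibrate-fed wild-type mouse 1 gave -3.93 and mouse 3 gave -4.13; in these 4 fits of 12 the difference was not called.

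In wild-type mice, the Dio1 difference of bezafibrate-fed minus untreated was -0.99 ± 1.18, smaller than its SE. In PPARα-null minus wild-type mice, both on bezafibrate, it was 0.70 ± 1.18. The PPARα-null and the wild-type comparison share the bezafibrate-fed wild-type arrays, as does the Clk/Clk comparison. Single mice decided these values. Without untreated mouse 3 the bezafibrate difference was -2.31, and without untreated mouse 2 it was -0.11. Without PPARα-null mouse 1 the genotype difference was 2.09, and without PPARα-null mouse 2 it was -0.04. None of these fits gave a call for Dio1 in either comparison.

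The spread of Dio1 between mice of a group was among the widest on the array. Its residual SD was 1.73 log2 units, and 2 of 13598 genes, Gdpd3 and BC023105, had a larger one, against a median of 0.124 over all genes. In PPARα-null livers, mice 2 and 3 were 19.1-fold and 16.6-fold higher than mouse 1. In untreated wild-type livers, mice 1 and 2 were 11.4-fold and 21.2-fold higher than mouse 3. In bezafibrate-fed wild-type livers the extreme mice differed 2.61-fold, and in Clk/Clk livers all 3 values were under the filter level and have no order. Leaving out PPARα-null mouse 1 lowered the residual SD to 1.33. The corresponding SD of Serpina7 was 0.488, with 239 genes above it, and those of Thra, Thrb and Ttr were 0.183, 0.133 and 0.026.

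**Figure D2:**
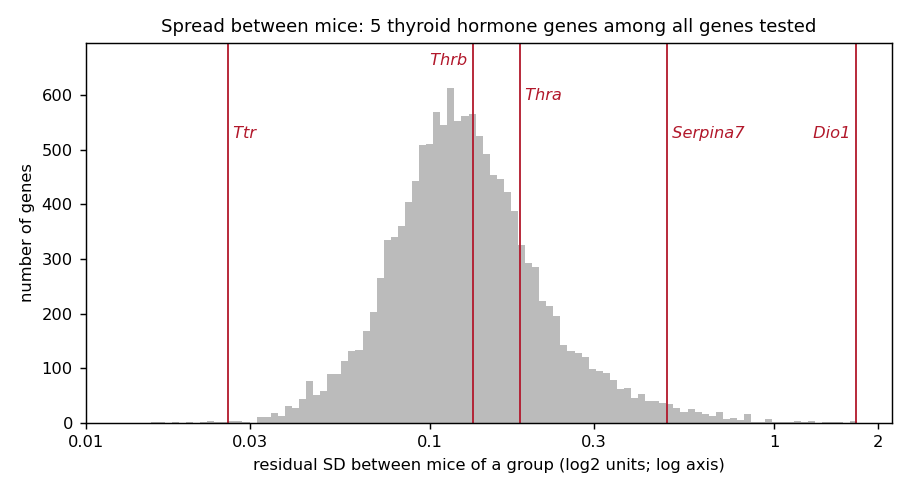
Number of genes (y axis) by residual SD between mice of a group in log2 units (x axis, log scale), for 13598 genes, with the 5 thyroid hormone genes as red lines. Dio1 is at 1.73, with 2 genes above it, and Ttr is at 0.026.

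The summed log2 levels of cell type markers were set beside the single mice with low Dio1, in all 7 lists other than the thyroid gland. PPARα-null mouse 1 had the highest hepatocyte sum of its group, at 16.73 against 16.66 and 16.61 in mice 2 and 3, and the highest stellate sum, at 11.93 against 11.64 and 11.68. It was also highest for sinusoidal endothelial, cholangiocyte and pancreas markers, and lowest for Kupffer cell markers and for blood cell markers, the last at 9.17 against 10.10 and 9.92. Untreated mouse 3 had the lowest hepatocyte sum of its group, at 16.82 against 16.90 and 16.83 in mice 1 and 2, and the highest stellate sum, at 12.08 against 11.93 and 12.06. It was also highest for Kupffer cell, sinusoidal endothelial and cholangiocyte markers, and intermediate for pancreas and blood cell markers, the last at 8.74 against 8.83 and 8.49. The stellate, sinusoidal endothelial and cholangiocyte sums were thus the highest of the group in both mice. Their hepatocyte and Kupffer cell sums lay at opposite ends of their groups. Only 1 pancreas, 3 blood cell and 3 cholangiocyte markers passed the filter, and those sums also hold genes under it. The part of any list in the Dio1 values was not tested.

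By the rule on likeness, the genes whose level correlated most with Dio1 over the 12 mice were Ggh, Yipf1, Vbp1, Gpd1l, Thy1 and Pdlim5, with Pearson r of 0.893 to 0.924. Ggh encodes gamma-glutamyl hydrolase, which trims folate polyglutamates, and had r = 0.924. Its mean log2 levels were 7.56 in Clk/Clk, 8.82 in PPARα-null, 8.68 in bezafibrate-fed wild-type and 8.85 in untreated wild-type mice. Without the 2 mice farthest from the median Dio1 level, Clk/Clk mice 3 and 1, the 6 values of r were 0.833 to 0.873. These mice share the group structure, in which Clk/Clk is low, so r carries the group difference, and 1 in 100 genes had r of at least 0.788.

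With each group mean subtracted, which leaves the spread between mice of a group, the highest r was that of Acot11 (0.925), followed by Yipf1 (0.923), Sox6os (0.918) and Aldh3a2 (0.916). Acot11 encodes an acyl-CoA thioesterase, Yipf1 a membrane protein of the Golgi, and Aldh3a2 a fatty aldehyde dehydrogenase. Without PPARα-null mouse 1 and untreated mouse 3, the 2 mice farthest from the median of these deviations, r was 0.519 for Acot11, 0.767 for Yipf1, 0.299 for Sox6os and 0.919 for Aldh3a2. The r of Sox6os, and in part that of Acot11, thus rests on those mice. Over the 12 mice without the subtraction, r was 0.765 for Acot11 and 0.911 for Yipf1. It was -0.429 for Sox6os and -0.447 for Aldh3a2, so these genes were not like Dio1 between groups. Of the other members, r to Dio1 with group means subtracted was 0.390 for Serpina7, -0.084 for Ttr, -0.165 for Thrb and -0.509 for Thra.

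Yipf1 and Acot11 lie near Dio1 on chromosome 4. Among the tested genes in chromosomal order, Yipf1 is the gene immediately after Dio1 and Hspb11 the one immediately before it, with Lrrc42 2 places and Acot11 7 places before. The comparison with the 10 tested genes on each side was chosen after the data had been seen. Yipf1 and Acot11 had already been found by this r, so their part in the count below was set beforehand. Of these 20 neighbours, 4 (20%) had r with group means subtracted at or above the 99th percentile of all genes, 0.735: Hspb11 at 0.823, Lrrc42 at 0.755, Yipf1 and Acot11. The median r of the 20 neighbours was -0.05, against 0.03 over all genes. Genes and arrays are shared here, so no p-value is given. Without the 2 mice farthest from the median, r was 0.054 for Hspb11 and 0.262 for Lrrc42.

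The levels in each mouse are given for neighbours picked by their r to Dio1. That the same mice are lowest is thus in part set by that choice. Yipf1 had log2 values of 8.87, 8.93 and 8.86 in Clk/Clk, 9.17, 9.74 and 9.47 in PPARα-null, 9.55, 9.18 and 9.35 in bezafibrate-fed wild-type, and 9.37, 9.45 and 8.94 in untreated wild-type mice. In each of the 3 groups other than Clk/Clk, the lowest mouse was the same for Yipf1 as for Dio1. Acot11 had log2 values of 5.56, 8.35 and 8.66 in PPARα-null and 6.56, 6.91 and 5.31 in untreated wild-type mice, so the mice low in Dio1 were the lowest there too. In bezafibrate-fed wild-type mice it had 5.93, 5.48 and 5.38, where mouse 2 was lowest in Dio1 but mouse 3 in Acot11. Hspb11 was 7.70, 8.22 and 8.15 in PPARα-null and 8.04, 8.27 and 7.89 in untreated wild-type mice, with the same mice lowest. In bezafibrate-fed wild-type mice Hspb11 was 8.46, 8.66 and 8.58, highest in mouse 2, the mouse lowest in Dio1. In Clk/Clk against wild-type mice on bezafibrate, 1 of the 20 neighbours was called lower and 0 higher. Of all genes, 6.49% were called lower and 2.64% higher there. The neighbour called was Ndc1, which encodes a nucleoporin, at -1.11 ± 0.14 (log2, SE), named after its value was seen. Its r to Dio1 with group means subtracted was 0.254. Ndc1 was also called higher in bezafibrate-fed than in untreated wild-type mice. Jcl:ICR is an outbred stock, and the genotype of the mice at this locus was not tested.

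**Figure D3:**
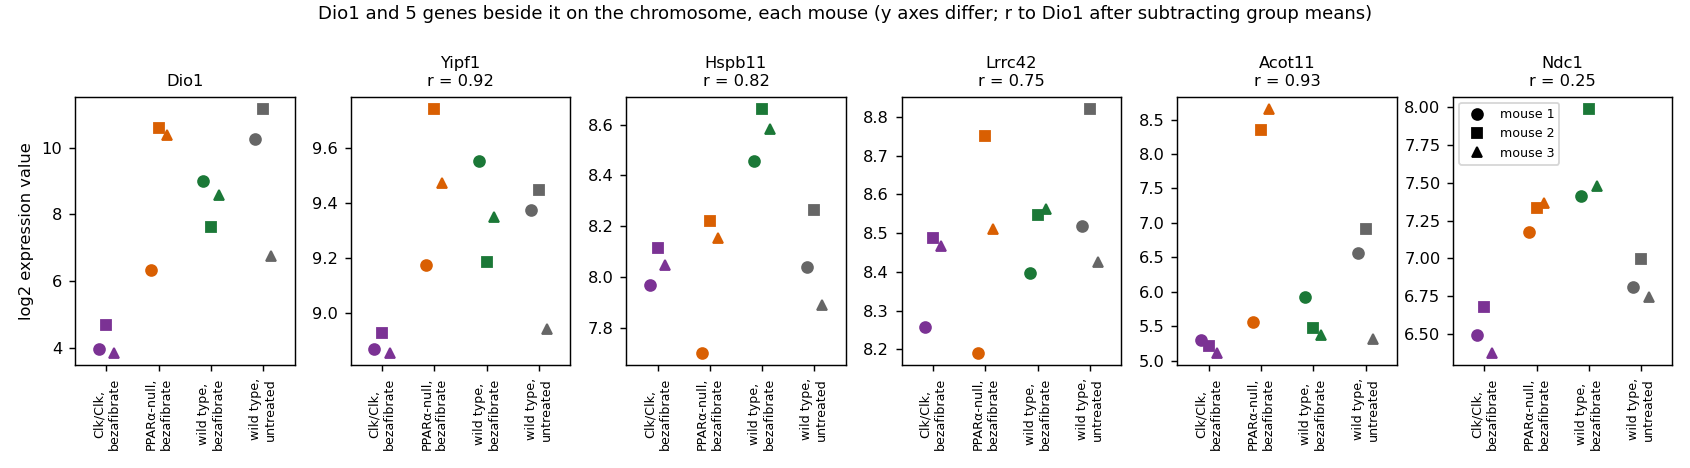
Log2 expression value (y axes, which differ) in each mouse by group (x axis) of Dio1 and 5 genes near it on chromosome 4, with Pearson r to Dio1 after subtracting group means. Yipf1, Hspb11, Lrrc42 and Acot11 were picked by r from 20 neighbours, and Ndc1 by its call in Clk/Clk. PPARα-null mouse 1 and untreated wild-type mouse 3 are the lowest of their groups for Dio1, Yipf1, Hspb11, Lrrc42 and Acot11. That pattern is in part set by the choice of genes.

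Serpina7, which encodes thyroxine-binding globulin, the main high-affinity carrier of thyroxine in human blood and a member of the serpin family, was high in both groups with an intact Ppara gene on bezafibrate. Its log2 values were 10.05, 10.52 and 10.25 in Clk/Clk and 10.75, 10.45 and 10.61 in bezafibrate-fed wild-type mice. PPARα-null mice had 7.62, 9.10 and 9.06 and untreated wild-type mice 7.68, 7.64 and 8.34. The high groups overlapped each other, the low groups overlapped each other, and no mouse of a high group overlapped a low one. From low to high the order of means was untreated wild type at 7.89 ± 0.40, PPARα-null at 8.60 ± 0.85, Clk/Clk at 10.27 ± 0.24 and bezafibrate-fed wild type at 10.60 ± 0.15 (SD, n = 3).

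Bezafibrate-fed minus untreated wild-type mice differed by 2.72 ± 0.34 (log2, SE), which is 6.57-fold. Serpina7 was the 1 member of 5 called there, in a comparison in which 20.6% of all genes were called and 12.8% were called higher. Its groups did not overlap, as was so in the higher direction for 30.2% of all genes. PPARα-null minus wild-type mice on bezafibrate differed by -2.01 ± 0.34, and Serpina7 was again the 1 member called, where 13.4% of all genes were called and 8.09% were called lower. Without PPARα-null mouse 1, which was low in Serpina7 as in Dio1, this difference was -1.52 and still called. Clk/Clk minus wild-type mice differed by -0.33 ± 0.34. Against untreated wild-type mice, bezafibrate-fed Clk/Clk mice differed by 2.38 ± 0.34 and bezafibrate-fed PPARα-null mice by 0.71 ± 0.34.

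Ttr encodes transthyretin, a tetrameric carrier of thyroxine and of the retinol-binding protein. Its 4 probe sets had log2 values of 14.1 to 14.7 in every mouse, close to the array maximum of 15. For its brightest probe set, values were 14.65, 14.60 and 14.57 in Clk/Clk, 14.68, 14.71 and 14.71 in PPARα-null, 14.64, 14.64 and 14.63 in bezafibrate-fed wild-type and 14.65, 14.67 and 14.71 in untreated wild-type mice. The differences were -0.04 ± 0.05 for bezafibrate, 0.07 ± 0.05 for PPARα-null against wild type and -0.03 ± 0.05 for Clk/Clk against wild type. Although some groups did not overlap, all differences of the brightest probe set were under 1.1-fold. Only 4 probe sets of the array were brighter on average, and near the upper end of the scale a change can be compressed, which was not tested. All 4 probe sets carry suffixes that mark possible matches to other transcripts.

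The receptors are Thrb, the main one of hepatocytes, and Thra, the main one of heart, bone and brain. Thrb had log2 values of 5.89, 6.04 and 5.95 in Clk/Clk, 6.15, 6.36 and 6.15 in PPARα-null, 5.68, 5.94 and 5.63 in bezafibrate-fed wild-type and 6.14, 6.32 and 6.44 in untreated wild-type mice. Bezafibrate-fed wild-type mice were below untreated ones without overlap, by -0.55 ± 0.10. PPARα-null mice were above wild-type mice on bezafibrate without overlap, by 0.47 ± 0.10, and Clk/Clk mice by 0.21 ± 0.10 with overlap. None of these reached 1.5-fold. The bezafibrate difference was -0.64 without bezafibrate-fed wild-type mouse 2 and -0.63 without untreated mouse 1, past 1.5-fold and called in those fits. On the brightest probe sets, Thrb and Ttr were the 2 members lower without overlap in bezafibrate-fed than in untreated wild-type mice, where 26.1% of all genes were. On the same probe sets these 2 were higher without overlap in PPARα-null than in wild-type mice on bezafibrate, where 24.3% of all genes were.

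Thra was measured by 3 probe sets with log2 values of 6.41 to 7.63, and they disagreed on bezafibrate. Its brightest probe set had 7.27, 7.36 and 7.17 in Clk/Clk, 7.28, 7.09 and 7.12 in PPARα-null, 6.78, 7.29 and 7.0 in bezafibrate-fed wild-type and 7.21, 7.55 and 7.63 in untreated wild-type mice. Bezafibrate-fed minus untreated mice differed by -0.44 ± 0.14 on that probe set, but by -0.28 ± 0.10 and -0.04 ± 0.09 on the others, and by -0.25 when the probe sets were averaged. In Clk/Clk minus wild-type mice on bezafibrate, another probe set gave 0.53 ± 0.09, with 7.19, 7.45 and 7.16 in Clk/Clk against 6.75, 6.69 and 6.78 in wild type. The other probe sets gave 0.24 ± 0.14 and 0.27 ± 0.10 there, and all of these differences were under 1.5-fold. The sources used here do not say which Thra transcripts each probe set reads.

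**Figure D4:**
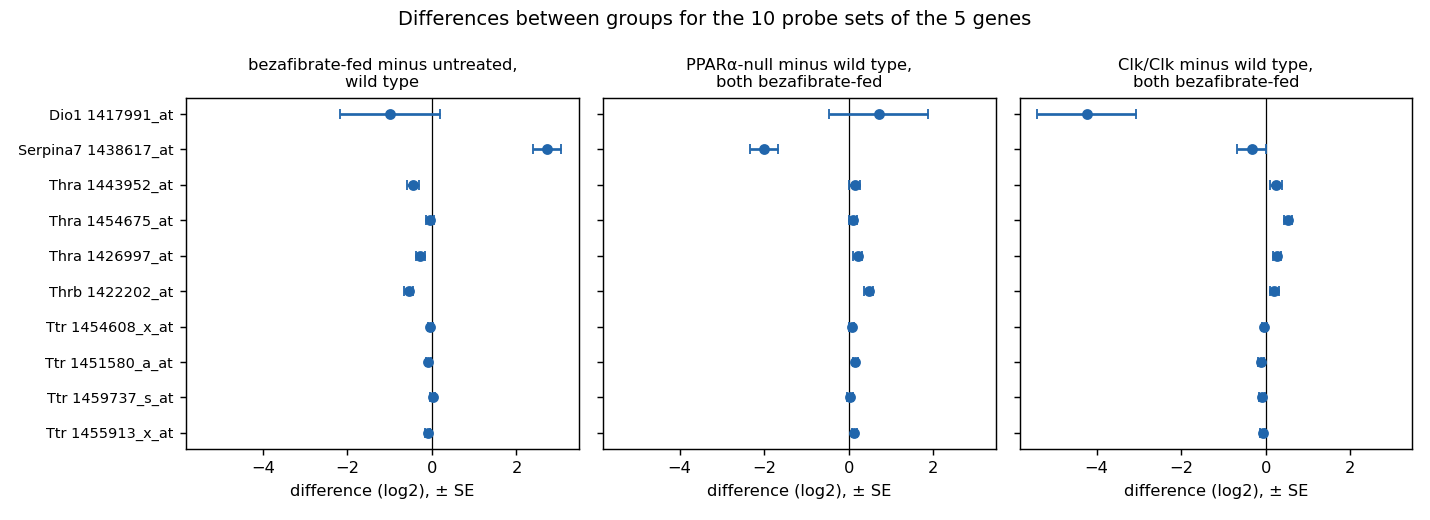
Difference in log2 expression (x axis, with SE from the limma fit over all probe sets) for each of the 10 probe sets of the 5 genes (y axis), in the 3 main comparisons. Dio1 is at -4.23 in Clk/Clk minus wild type, and Serpina7 is at 2.72 for bezafibrate and -2.01 for PPARα-null minus wild type.

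Beyond the members, lists of related genes were counted. These lists too were chosen with earlier results of these data known, so the adjusted p-values of their genes are descriptive. Of 14 listed thyroid hormone transporters and cytosolic binding proteins, 10 were tested. In bezafibrate-fed against untreated wild-type mice 1 rose and 6 fell, where 12.8% of all genes were called higher and 7.77% lower. The list median was -0.86 against 0.01 over all genes. Slco1a1, an organic anion transporter that carries iodothyronines, fell by 2.31 (log2, limma adjusted p = 7.62e-09). Slc10a1, the bile acid transporter that also takes up sulfated iodothyronines, fell by 1.46 (adjusted p = 7.05e-08), and Slco2b1 fell by 1.58 (adjusted p = 2.79e-07). Slc3a2, the heavy chain of the amino acid transporters that carry thyroid hormones, rose by 1.48 (adjusted p = 1.14e-06). Between the same groups, 5 of 7 hepatocyte, 3 of 7 stellate and 2 of 7 sinusoidal endothelial markers were called lower, and 1 Kupffer cell and 1 cholangiocyte marker higher. The summed log2 level of pancreas markers was 8.51 to 8.70 in bezafibrate-fed and 10.21 to 10.28 in untreated mice. Only 2 of the 4 pancreas markers listed were on the array, and of these Cpa1 did not pass the filter. The 1 pancreas marker tested was called lower. The part of these markers in the list values was not tested. Alb, which encodes albumin, is in both the hepatocyte and the transporter list and was not called.

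In PPARα-null against wild-type mice on bezafibrate, 5 transporters were higher and 1 lower, with a list median of 0.64. Of all genes, 5.35% were called higher and 8.09% lower there. Slco1a4, another organic anion transporter, was higher by 4.95 ± 0.35 (limma, adjusted p = 1.45e-06), with means of 11.44 ± 0.13 in PPARα-null and 6.50 ± 0.79 in wild-type mice. Slco1a1 was higher by 2.07, Slco2b1 by 1.74 and Slc10a1 by 1.68. In Clk/Clk against wild-type mice on bezafibrate, Slco1a1 was lower, at -1.99 ± 0.08 (adjusted p = 4.02e-07), and Slco1a4 higher by 2.34 ± 0.35 (adjusted p = 0.000858). These were the 1 lower and 1 higher gene of the list, where 6.49% of all genes were called lower and 2.64% higher. The list median was -0.02 and its mean 0.08. Without Clk/Clk mouse 1 or bezafibrate-fed wild-type mouse 2, 2 genes of the list were higher.

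The list of other deiodinases, sulfation, glucuronidation and iodotyrosine handling had 8 of 12 genes tested. In bezafibrate-fed against untreated wild-type mice 5 fell and 0 rose, where 7.77% of all genes were called lower and 12.8% higher, with a list median of -1.05. Ugt2b1, a glucuronosyltransferase, fell by 2.56 (limma, adjusted p = 1.84e-08) and Sult1b1, a sulfotransferase that acts on iodothyronines, fell by 2.59 (adjusted p = 3.26e-08). Iyd, which recovers iodide from iodotyrosines, fell by 1.09 (adjusted p = 4.28e-07), and Sult1a1, a phenol sulfotransferase, fell by 3.35 (adjusted p = 1.33e-05). In PPARα-null against wild-type mice on bezafibrate 6 were higher and 0 lower, where 5.35% of all genes were called higher and 8.09% lower, with a list median of 1.34. Ugt2b1 was higher by 2.32, Sult1b1 by 1.77, Sult1c2 by 1.58 and Iyd by 0.85.

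In Clk/Clk against wild-type mice on bezafibrate, 2 genes of that list were higher and 1 lower, where 2.64% of all genes were called higher and 6.49% lower, with a median of -0.25 and a mean of 0.08. Sult1a1 was higher by 2.06 ± 0.34 (limma, adjusted p = 0.00168), Sult1d1 was higher by 0.71 ± 0.15 (adjusted p = 0.00539), and Ugt2b1 was lower at -1.16 ± 0.10 (adjusted p = 5.48e-05). Dio2, the deiodinase that activates thyroxine in brown fat, pituitary and brain, had log2 values of 4.35 to 4.89 on the 12 arrays and did not pass the filter. Slc7a8 and Slco1c1, transporters of the first list, were likewise dim, at 4.60 to 5.26 and 3.43 to 4.74.

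**Figure D5:**
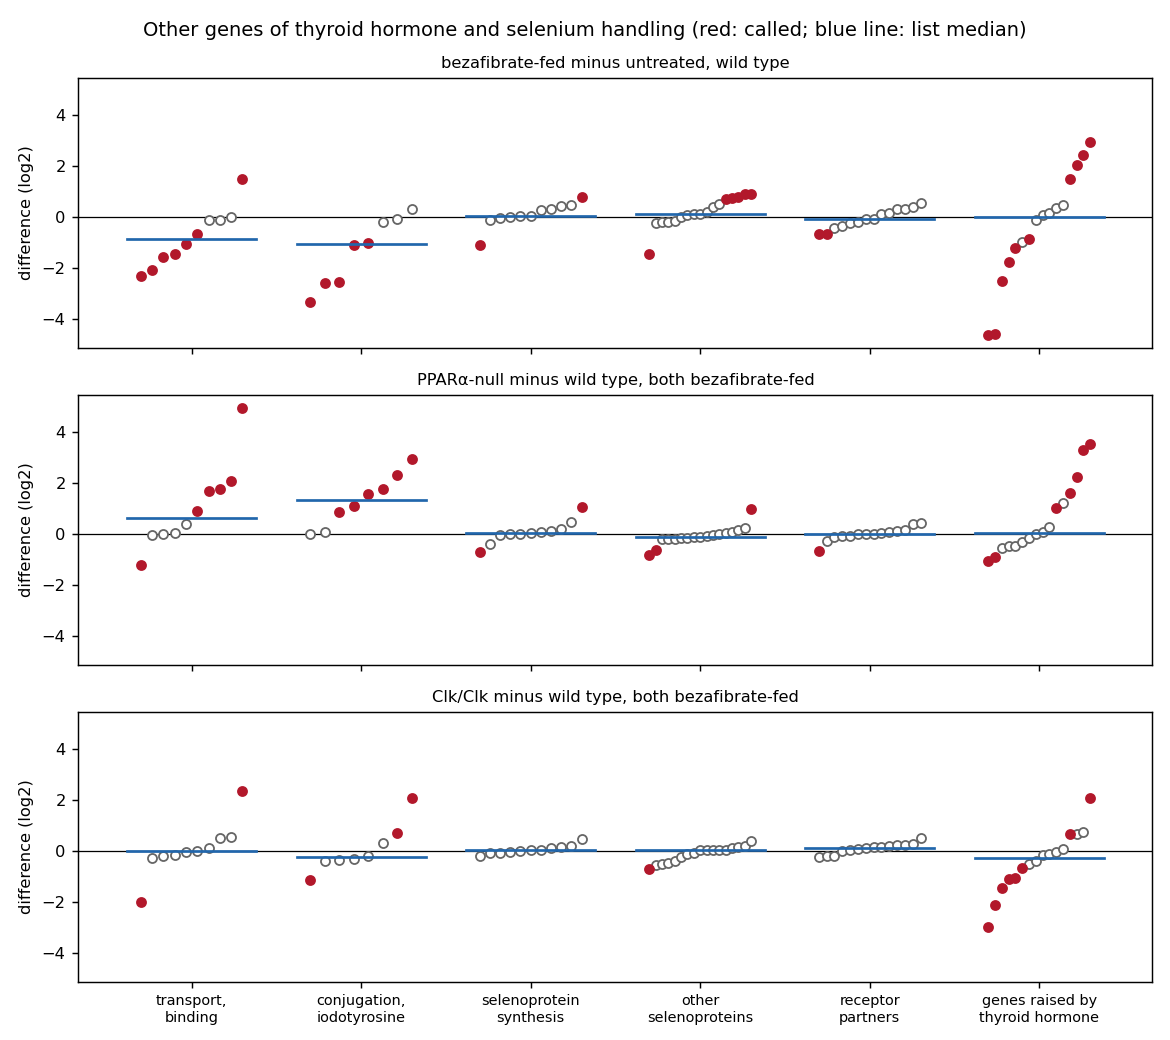
Difference in log2 expression (y axis) of each tested gene of 6 lists of thyroid hormone and selenium handling (x axis), in the 3 main comparisons; red points are called genes, open points are not, and blue lines are list medians. The transporter and conjugation lists have medians of -0.86 and -1.05 for bezafibrate in wild type, and 0.64 and 1.34 for PPARα-null minus wild type.

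DIO1 carries a selenocysteine, so the genes that make and use this amino acid were counted too. Of 11 tested selenoprotein synthesis genes, 1 rose and 1 fell in bezafibrate-fed against untreated wild-type mice, where 12.8% of all genes were called higher and 7.77% lower. Sephs2, the selenophosphate synthetase, fell by 1.09 (limma, adjusted p = 4.91e-07), and Secisbp2l, related to the protein that recruits the selenocysteine machinery, rose by 0.78 (adjusted p = 1.23e-05). In PPARα-null against wild-type mice on bezafibrate, Sephs2 was higher by 1.06 and Secisbp2l was lower, at -0.73, the 1 gene in each direction, where 5.35% of all genes were called higher and 8.09% lower. In Clk/Clk against wild-type mice on bezafibrate 0 of the 11 were called in either direction by limma, where 9.13% of all genes were called. The list median was 0.03.

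Of 17 other liver selenoproteins, 5 rose and 1 fell in bezafibrate-fed against untreated wild-type mice, where 12.8% of all genes were called higher and 7.77% lower. Selenoo, a mitochondrial selenoprotein, fell by 1.44 (limma, adjusted p = 1.63e-06). Gpx4, which reduces lipid hydroperoxides, rose by 0.88 (adjusted p = 2.92e-06), Selenoi by 0.90 and Selenoh by 0.79. In PPARα-null against wild-type mice on bezafibrate 1 was higher, Selenoo at 0.99, and 2 were lower, Txnrd1, a cytosolic thioredoxin reductase, at -0.83 and Selenoi at -0.63, where 5.35% of all genes were called higher and 8.09% lower. Without PPARα-null mouse 1 or bezafibrate-fed wild-type mouse 3, 1 was lower. In Clk/Clk against wild-type mice on bezafibrate, Selenoh alone was called, at -0.72 ± 0.11 (limma, adjusted p = 0.00105), where 6.49% of all genes were called lower, and without wild-type mouse 3 the count of lower genes was 3. The list median there was 0.01 and its mean -0.13.

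Of 14 tested receptor partners, corepressors and coactivators, 2 fell and 0 rose with bezafibrate in wild-type mice, with a list median of -0.09. Of all genes, 7.77% were called lower and 12.8% higher there. Rxra, the usual heterodimer partner of the thyroid hormone receptors and of PPARα, fell by 0.66 (limma, adjusted p = 6.18e-05), and Ncoa2, a coactivator, fell by 0.67 (adjusted p = 0.000124). In PPARα-null against wild-type mice on bezafibrate 1 was lower, the corepressor Nrip1 at -0.66 ± 0.14 (limma, adjusted p = 0.00352), where 8.09% of all genes were called lower. That call was lost without PPARα-null mouse 1 or bezafibrate-fed wild-type mouse 1 or 3. In Clk/Clk against wild-type mice on bezafibrate 0 were called by limma in either direction, where 9.13% of all genes were called. Without wild-type mouse 3, 1 was higher. For bezafibrate, 1 was higher without bezafibrate-fed mouse 2.

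Of 16 tested liver genes that triiodothyronine raises, 4 rose and 6 fell in bezafibrate-fed against untreated wild-type mice, where 12.8% of all genes were called higher and 7.77% lower, and the list median was -0.02. Me1, malic enzyme, rose by 2.92 (limma, adjusted p = 4.98e-08), Gpd2, mitochondrial glycerol-3-phosphate dehydrogenase, by 2.03 and Acaca, acetyl-CoA carboxylase, by 1.48. Pck1, the gluconeogenic PEP carboxykinase, fell by 4.66 (adjusted p = 1.14e-06). In PPARα-null against wild-type mice on bezafibrate 5 were higher and 2 lower, where 5.35% of all genes were called higher and 8.09% lower, with Pck1 at 3.28 and Upp2, a uridine phosphorylase, at 1.59, and with Gpd2 at -1.05 and Bcl3 at -0.89. The list did not move in 1 direction. These genes also respond to signals other than thyroid hormone, and the part of such signals was not tested.

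In Clk/Clk against wild-type mice on bezafibrate, where Dio1 was lowest, 6 genes of that list were lower and 2 higher, where 6.49% of all genes were called lower and 2.64% higher. The list median was -0.28 against 0.02 over all genes. Slc2a2, the hepatocyte glucose transporter, was lower at -2.13 ± 0.28 (limma, adjusted p = 0.000482), and Gpd2 at -1.12 ± 0.17 (adjusted p = 0.000858). Me1 was at -1.08 ± 0.14 (adjusted p = 0.000457) and Bcl3 at -0.68 ± 0.09 (adjusted p = 0.000515). Without Clk/Clk mouse 2 the count of higher genes was 1. Thyroid hormone itself was not measured, so the part of hormone levels in these values was not tested.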

How the data were processed

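Liver RNA of 12 mice was hybridised to an Affymetrix expression array after labelling with a 3' IVT kit, per the labels' protocols. The deposited table holds log2 values, made by the authors with RMA, per the submitters' processing notes; array design, background and genome build are not given in the sources used here. Scanner files were not used here, and the labels name no batch. Probe sets were named through the platform annotation: 34945 had 1 gene symbol, 932 several and 9160 none, and 64 were controls. Symbols were matched to RefSeq (GRCm38.p6) for 34741 of them. Probe sets at or above the 40th percentile of the array on at least 3 arrays were kept (28344), and the brightest per gene was tested.

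One fit of 4 group means in limma 3.58.1 (R 4.3.3) had 8 residual degrees of freedom. Genes were called at a Benjamini-Hochberg adjusted p under 0.05 over all genes and at least 1.5-fold. A second such fit took every probe set kept. The fit was tested on simulated data. Named genes are the members and the 4 genes of each list with the smallest adjusted p among those called. The 6 and 4 genes with the highest r to Dio1, before and after subtracting group means, are also named. Members and lists were chosen with earlier results of these data known. Alternatives covered filter, probe set choice, normalisation, weights, variance model, replicate block, groups fitted and each mouse left out.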

Additional observations from a re-analysis of the deposited data

How the results depend on the processing

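With 3 mice a group, single mice set several values. Under 10 other settings, the numbers of genes called stayed within 1.5 times, at 2384 to 2877 for bezafibrate, 1544 to 1876 for PPARα-null and 1070 to 1277 for Clk/Clk, and the Dio1 differences at -1.05 to -0.71, 0.70 to 0.96 and -4.23 to -4.11, the last called in all 10. Deviations of same-numbered mice had r of -0.092 to 0.125 over 18 pairs of arrays, with a median of 0.028. Differently numbered mice had r of -0.165 to 0.134 over 36 pairs, with a median of -0.017. These ranges overlap, but the check cannot exclude a pairing that affects few genes. With the replicate number as a block, 2801, 1824 and 1253 genes were called, against 2798, 1827 and 1241 without it, and the Dio1 differences were -0.99, 0.70 and -4.23. Leaving out each mouse in turn gave 2749 to 2923, 1637 to 1953 and 1074 to 1407 genes, Dio1 differences of -2.31 to -0.11, -0.04 to 2.09 and -4.62 to -3.93, and a Dio1 residual SD of 1.33 to 1.84. Of 261 values of the other 4 members under these settings, 257 moved by less than 1 SD, 4 moved by more and 0 reversed. The 4 were Thra for bezafibrate at -0.25, Ttr at 0.10 for PPARα-null and -0.07 for Clk/Clk, all with probe sets averaged, and Serpina7 for PPARα-null at -1.52 without PPARα-null mouse 1. Ttr has no value with suffixed probe sets left out.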
